A study of Mus musculus with 12 samples.

Results

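The hedgehog pathway was examined through 9 genes: the ligands Shh, Ihh and Dhh, the receptors Ptch1 and Smo, the transcription factors Gli1, Gli2 and Gli3, and the membrane-bound antagonist Hhip. Every probe set of the array whose only gene symbol is one of these 9 was taken, whatever its values, which gave 21 of 45037 probe sets, and no probe set is shared between one of the 9 and another gene. The study asked what the embryonic mouse pancreas lost or gained in expression when β-catenin, the cytoplasmic effector of canonical Wnt signaling, was deleted from it. Pancreata were taken from embryos of Pdx1Cre/+; beta-catenin flox/+ intercrosses, and 1 pancreas was hybridized to each of 12 arrays: 2 wildtype and 4 β-catenin KO (Pdx1Cre/+; beta-catenin flox/flox) at E14.5, and 2 wildtype and 4 β-catenin KO at E16.5. The Pdx1-cre transgene acts in the epithelium that arises from Pdx1-expressing cells, not in mesenchyme, vessels or nerves, and the study held its action to be probably mosaic, which was not measured here. The labels do not give the Cre or floxed alleles of the wildtype embryos. RNA of the whole organ was used, so fewer cells of a type and less RNA per cell cannot be told apart in any value given here.

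Hedgehog ligands are secreted, lipid-modified proteins that bind the receptor Ptch1. Without ligand, Ptch1 holds back Smo, and Gli3 and Gli2 are cut into repressors of transcription. With ligand, Smo enters the primary cilium and full-length Gli2 and Gli3 activate targets, among them Gli1, Ptch1 and Hhip, which are therefore used as readouts of the pathway. Hhip binds all the ligands and limits their range. In the pancreas, Shh is kept out of the early pancreatic epithelium while neighbouring gut expresses it, hedgehog-responding cells lie largely in the mesenchyme, and loss of Hhip is known to impair growth of the organ.

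Each value is the authors' ratio of a pancreas to the mean of the 2 wildtype pancreata of its day. The wildtype mean is therefore 1, the wildtype pair lies symmetrically about it, and the values hold neither abundance nor a course over development. KO was compared with wildtype within a day by limma on log2 ratios, with p-values adjusted by the Benjamini-Hochberg method over all 45037 probe sets and a limit of 0.05. The p-values measure the spread between these 12 pancreata, taken as independent. The KO arrays of each day share a number in their names in pairs, and so do the 2 wildtype arrays of E14.5. No number is shared between KO and wildtype, and the labels do not say what it marks. Among the KO pancreata, the interquartile range of log2 ratios over all probe sets was 0.199 to 0.414, widest in KO_540G, against 0.110 to 0.151 in the wildtype. The 3 probe sets of Ctnnb1, the deleted gene, had KO means of 0.678 to 1.21 and adjusted p = 0.152 to 0.920; whether they fall inside the deleted exons is not known here, so they cannot check the labels.

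None of the 21 hedgehog probe sets passed the limit at either day or in the test of the difference between the days. Over all probe sets 0.0111%, 2.62% and 0.349% passed in these comparisons. At E14.5 the lowest value of the pathway was that of 1 of 4 Hhip probe sets, at 0.517 ± 0.194 of wildtype (SD, n = 4), and at E16.5 the same probe set stood at 1.06 ± 0.156. At E16.5 the highest values were those of Gli3, at 2.30 ± 0.908, and of Gli2, at 2.27 ± 0.649, each on 1 probe set. The readout Gli1 was close to the wildtype mean, at 0.983 ± 0.0984 at E14.5 and then 1.08 ± 0.0670 at E16.5. An unadjusted limma p under 0.05 was found for 3 hedgehog probe sets (14.3%) at E14.5, where 6.86% of all probe sets had one, and for 4 (19.0%) at E16.5, where 16.6% had. All 4 KO values lay above both wildtype values for 3 of the 21 at E14.5 (8.17% of all probe sets) and for 5 at E16.5 (14.5%). They lay below both for 3 at E14.5 (8.06%) and for 0 at E16.5 (11.1%). Over the 21, log2 fold changes had a median of 0.02 at E14.5, the same as that of all probe sets, and 0.10 at E16.5, where all probe sets had 0.03.

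**Figure D1:**
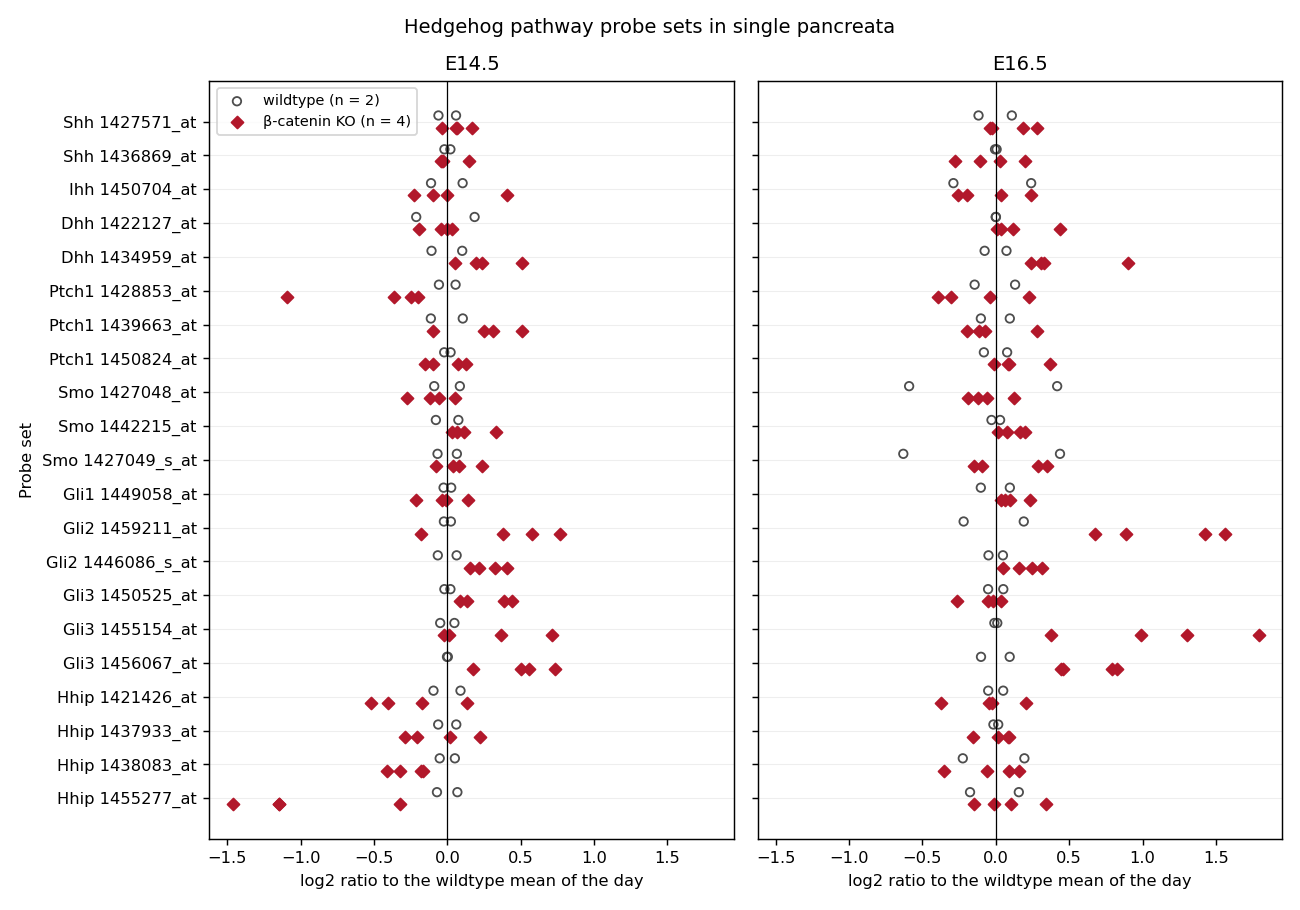
Log2 ratio to the day's wildtype mean (x axis) of each hedgehog probe set (y axis) in single pancreata, with open circles for the 2 wildtype and diamonds for the 4 β-catenin KO pancreata of E14.5 (left) and E16.5 (right). Hhip 1455277_at lies to the left at E14.5 and around 0 at E16.5, while Gli2 1459211_at, Gli3 1455154_at and Gli3 1456067_at lie to the right at E16.5.

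Of the ligands, Shh and Ihh had ratios near the wildtype mean. Such a ratio, here as for Gli1, cannot tell unchanged expression from a signal too dim to show a change. For Shh, which patterns the gut tube, KO ratios on 2 probe sets ran from 0.969 to 1.13 at E14.5 and from 0.825 to 1.22 at E16.5. For Ihh, the ligand of cartilage and gut epithelium, the single probe set 1450704_at ran from 0.854 to 1.33 and from 0.837 to 1.18, and its wildtype pair at E16.5 spread as far, from 0.818 to 1.18. Shh and Ihh thus overlapped with wildtype on every probe set at both days. Their 95% intervals for the log2 fold change were widest for Ihh, from -0.42 to 0.46 at E14.5 (0.748-fold to 1.38-fold) and from -0.46 to 0.42 at E16.5.

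Dhh, the ligand known from Schwann cells, Sertoli cells and endothelium, was the one ligand whose KO values lay above both wildtype values, and it did so at E16.5 on both of its probe sets. On 1434959_at the 4 KO pancreata of E16.5 were at 1.87, 1.24, 1.25 and 1.18 and the wildtype pair at 0.948 and 1.05. The KO mean was 1.39 ± 0.324, a log2 fold change of 0.45 ± 0.18 (SE; adjusted p = 0.234). Its highest value came from KO_541J, without which the log2 fold change was 0.29, and the other 3 KO pancreata lay close together. On 1422127_at the KO values of E16.5 ran from 1.01 to 1.35 and both wildtype pancreata sat at the wildtype mean, with a log2 fold change of 0.15 (adjusted p = 0.696). At E14.5 neither Dhh probe set separated the groups.

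Among the receptors, the 3 probe sets of Ptch1 did not share a direction at E14.5. On 1428853_at the KO pancreata of E14.5 were at 0.840, 0.469, 0.872 and 0.777, all under the wildtype values of 1.04 and 0.961, and the log2 fold change was -0.48 ± 0.24 (SE; adjusted p = 0.757). The lowest of them, 0.469, was that of KO_540G, and without it the log2 fold change was -0.27. On 1439663_at the KO mean of the same day was 1.20 ± 0.202, and on 1450824_at it was 0.994 ± 0.0913. At E16.5 the KO means of the 3 probe sets were 0.928, 0.990 and 1.10, and KO and wildtype overlapped on each.

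Smo, the membrane protein that passes the signal on, had KO means between 0.936 and 1.10 on 3 probe sets over both days. At E16.5 its wildtype pair limits what can be said: on 1427048_at the pair stood at 1.34 and 0.664, on 1427049_s_at at 1.35 and 0.646, a log2 gap of 1.01 and 1.07, and all 4 KO pancreata lay between them on both. Leaving out one wildtype pancreas or the other moved the log2 fold change of 1427048_at from -0.48 to 0.53. These 2 probe sets carry the same accession in the array's annotation and are not separate evidence. On the third, 1442215_at, the pair stood at 1.02 and 0.980 and the KO mean was 1.08 ± 0.0631, with a log2 fold change of 0.11 (adjusted p = 0.693).

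The transcription factors differed among themselves. Gli1, an activator and itself a target of the pathway, was at 0.995, 0.861, 0.976 and 1.10 in the KO pancreata of E14.5 and at 1.07, 1.03, 1.05 and 1.18 in those of E16.5. Its log2 fold changes were -0.03 with a 95% interval from -0.27 to 0.21 (adjusted p = 0.988) and 0.11 with an interval from -0.13 to 0.36 (adjusted p = 0.713). Gli2, the main activator, and Gli3, the main repressor, had a log2 fold change above 0 on 5 of 5 probe sets at E14.5 and on 4 of 5 at E16.5. The share of all probe sets above 0 was not counted. With 2 of the 5 from Gli2 and 3 from Gli3, they are not 5 separate pieces of evidence.

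The bases just upstream of the annotated starts of Gli2 and Gli3, the genes with the highest ratios, and of Hhip, the one with the lowest, are shown so that the regions can be compared (RefSeq, GRCm38.p6, 250 bases before the start, 5′ to 3′ along the gene). Capitals mark GGGTGGT, the core of the Gli binding motif, searched on both strands.
Gli2, chr1:119053620-119053869, minus strand: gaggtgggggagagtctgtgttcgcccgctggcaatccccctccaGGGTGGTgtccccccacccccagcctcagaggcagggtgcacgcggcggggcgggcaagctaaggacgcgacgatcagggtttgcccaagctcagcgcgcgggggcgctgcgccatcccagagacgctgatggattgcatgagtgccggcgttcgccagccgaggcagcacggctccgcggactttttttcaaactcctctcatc
Gli3, chr13:15463473-15463722, plus strand: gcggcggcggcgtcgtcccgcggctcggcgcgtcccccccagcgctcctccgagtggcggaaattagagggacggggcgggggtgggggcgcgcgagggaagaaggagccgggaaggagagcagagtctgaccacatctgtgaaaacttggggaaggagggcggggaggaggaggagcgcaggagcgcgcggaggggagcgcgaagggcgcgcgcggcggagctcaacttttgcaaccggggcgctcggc
Hhip, chr8:80058009-80058258, minus strand: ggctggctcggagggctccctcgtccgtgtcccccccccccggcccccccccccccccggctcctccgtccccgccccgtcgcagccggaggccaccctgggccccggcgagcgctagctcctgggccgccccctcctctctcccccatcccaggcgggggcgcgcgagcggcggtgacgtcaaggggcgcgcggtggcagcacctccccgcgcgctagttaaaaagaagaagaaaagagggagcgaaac

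The core was found once, 205 bases before the start of Gli2, and in none of the other 6 of the 9 genes that have an entry in the promoter table. It stands in 3.92% of 32851 such regions. The longer motif TGGGTGGTC, which contains the core and stands in 0.225% of them, and CTTTGAT, a motif of the Tcf partners of β-catenin, which stands in 3.21%, were in none of the 7. All 3 regions were rich in CpG dinucleotides, with 22 in Gli2, 34 in Gli3 and 28 in Hhip against a median of 6, and their G and C content was 67.2%, 72.8% and 76% against a median of 52.4%. The array measures RNA and not binding, so these matches describe letters and nothing more.

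On Gli2 1459211_at the 4 KO pancreata of E16.5 stood at 2.69, 2.95, 1.85 and 1.60 (KO_541J, KO_541L, KO_591C and KO_591D) and the wildtype pair at 0.859 and 1.14. Every KO value exceeded both wildtype values. The log2 fold change was 1.15 ± 0.28 (SE), a fold of 2.22, with an unadjusted limma p of 0.00147 and an adjusted p = 0.0525, which does not pass the limit. At E14.5 the same probe set was at 1.70, 1.30, 0.882 and 1.49 (KO_540C, KO_540G, KO_615A and KO_615B) against 0.984 and 1.02, a log2 fold change of 0.39 ± 0.28 (adjusted p = 0.875). There KO_615A lay under the wildtype pair and the other 3 KO pancreata above it. The second Gli2 probe set, 1446086_s_at, differed far less: its KO means were 1.21 ± 0.0946 (E14.5) and 1.15 ± 0.0917 (E16.5), with adjusted p = 0.669 and 0.408. Both carry the same accession in the array's annotation, but where their probes lie was not checked, and the gap between them was not explained.

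On Gli3 1455154_at the KO pancreata of E16.5 stood at 2.47, 3.46, 1.98 and 1.30 and the wildtype pair at 1.01 and 0.993. All 4 again exceeded both, and the spread among them was wide. The log2 fold change was 1.12 ± 0.31 (SE; adjusted p = 0.0851), against 0.27 ± 0.31 at E14.5 (adjusted p = 0.945). On Gli3 1456067_at the values were 1.77, 1.73, 1.37 and 1.36 at E16.5, with the wildtype pair at 1.07 and 0.932, and 1.42, 1.66, 1.13 and 1.47 at E14.5, with the pair at 0.998 and 1.002. Of the 21, this probe set alone had all 4 KO values above both wildtype values at both days. The share of all probe sets that do so at both days was not counted, so whether this is unusual is not known. The log2 fold changes of Gli3 1456067_at were 0.49 ± 0.16 at E14.5 (adjusted p = 0.590) and 0.63 ± 0.16 at E16.5 (adjusted p = 0.0605). The third Gli3 probe set, 1450525_at, had a KO mean of 1.21 ± 0.148 at E14.5 but 0.952 ± 0.0833 at E16.5, where it overlapped with wildtype.

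A difference in KO effect between the days was not resolved for Gli2 or Gli3: it was 0.77 on Gli2 1459211_at, with a 95% interval from -0.09 to 1.63, and 0.85 on Gli3 1455154_at, with one from -0.11 to 1.81, and the smallest adjusted p of the 5 interaction tests was 0.557. Averaged over its probe sets, each gene gave a log2 fold change at E16.5 of 0.67 (Gli2) and 0.56 (Gli3), both with an adjusted p = 0.0501 among 18193 genes. Both means thus stayed just above the limit and neither passed it. With weights given to arrays by their fit, Gli2 1459211_at, Gli3 1455154_at and Gli3 1456067_at had adjusted p = 0.0283, 0.0281 and 0.0297, and without KO_591D 0.0188, 0.0104 and 0.0327. Without KO_615A, whose array enters the shared variance, Gli2 1459211_at and Gli3 1456067_at had 0.0334 and 0.0413, and without KO_540G Gli3 1456067_at had 0.0454. Over the 21 alternatives run, Gli2 1459211_at, Gli3 1455154_at and Gli3 1456067_at passed the limit in only 4, 2 and 4. Their adjusted p, in that order, reached from 0.0188 to 0.369, from 0.0104 to 0.434 and from 0.0297 to 0.369.

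Along the 12 pancreata, Gli2 1459211_at and Gli3 1455154_at had a Pearson correlation of 0.94, and Gli2 1459211_at and Gli3 1456067_at one of 0.83. These points share the KO and wildtype groups and the scaling to the wildtype mean, so the correlations are descriptive. In contrast Gli2 1459211_at and Gli3 1450525_at gave -0.34.

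**Figure D2:**
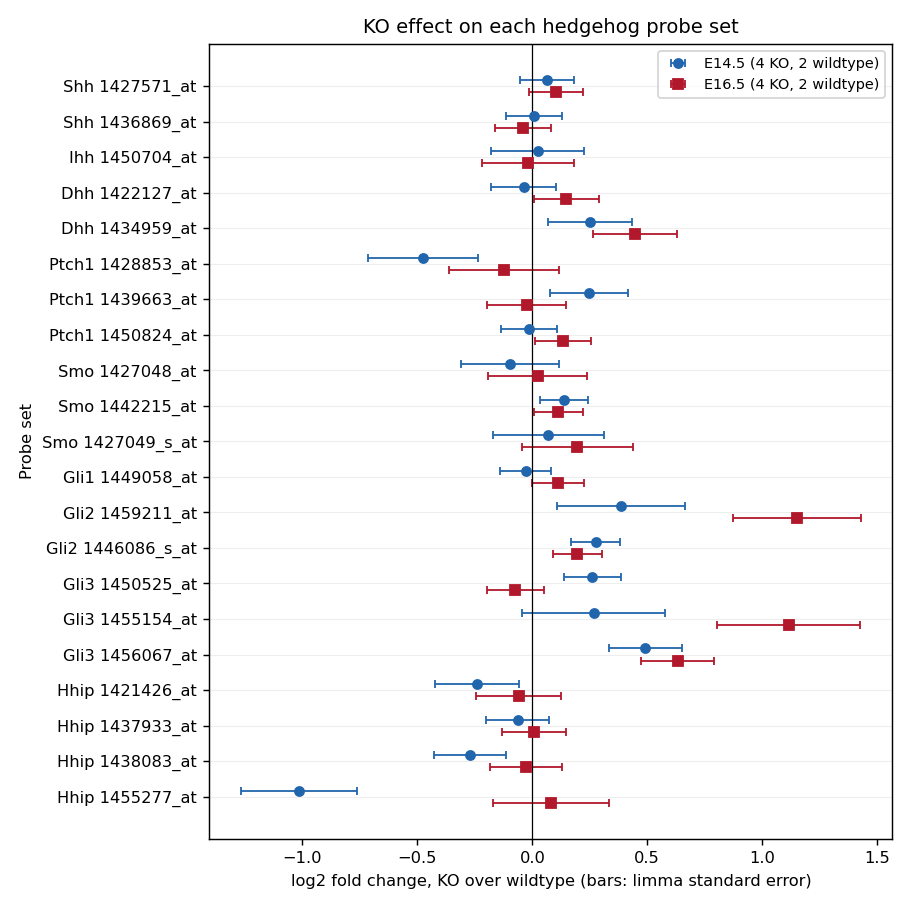
Log2 fold change of KO over wildtype (x axis) with its limma standard error (bars) for each hedgehog probe set (y axis) at E14.5 (circles) and E16.5 (squares), from 4 KO and 2 wildtype pancreata a day. The probe sets furthest from 0 are Hhip 1455277_at at E14.5, at -1.02, and Gli2 1459211_at and Gli3 1455154_at at E16.5, at 1.15 and 1.12.

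Hhip was lower in the KO mean on 4 of 4 probe sets at E14.5. On 1455277_at the 4 KO pancreata stood at 0.452, 0.364, 0.800 and 0.451 (KO_540C, KO_540G, KO_615A and KO_615B) and the wildtype pair at 1.05 and 0.952. All KO values lay under both wildtype values, with 3 of them close together and KO_615A nearer to wildtype. The log2 fold change was -1.02 ± 0.25 (SE), with a 95% interval from -1.57 to -0.46, an unadjusted limma p of 0.00179 and an adjusted p = 0.475. At E16.5 the KO pancreata stood at 1.08, 0.903, 1.27 and 0.992 and the wildtype pair at 1.11 and 0.885, and the groups overlapped. The KO effect at E16.5 exceeded that at E14.5 by 1.10 ± 0.36 (SE, log2), with a 95% interval from 0.32 to 1.88, an unadjusted limma p of 0.010 and an adjusted p = 0.278. It was the one probe set of the 21 with an unadjusted limma p under 0.05 for that difference, and 4665 of all 45037 probe sets had one. Without KO_615A, the log2 fold change at E14.5 was -1.25 and its adjusted p = 0.0439; leaving out any other pancreas, or another processing, gave no call, with adjusted p up to 0.9999.

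The other Hhip probe sets did not follow it in size. On 1438083_at the KO pancreata of E14.5 were at 0.750, 0.893, 0.884 and 0.798, all under the wildtype values of 0.964 and 1.04, a log2 fold change of -0.27 (adjusted p = 0.811). On 1421426_at and 1437933_at the KO means of E14.5 were 0.858 ± 0.178 and 0.966 ± 0.158, and KO and wildtype overlapped. At E16.5 the log2 fold changes of these 3 probe sets lay between -0.06 and 0.01. Averaged over the 4 probe sets, Hhip had a log2 fold change of -0.40 at E14.5 (adjusted p = 0.520). The correlation between pairs of Hhip probe sets over the 12 pancreata ran from 0.22 to 0.74, so the 4 do not rank the pancreata alike.

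The study's methods also kept probe sets by a fold criterion, an upper and a lower bound on the ratio that had to be passed in at least 3 KO pancreata of E14.5 or in all 4 of E16.5. Applied to the deposited values, these bounds did not give the numbers of probe sets that the study states. Here 1135 passed the upper and 476 the lower bound at E14.5, and 485 and 262 at E16.5. Passing here is thus not the same as passing the study's own filter. Of the 21 probe sets, Gli2 1459211_at and Gli3 1456067_at passed the upper criterion at both days, where 2.52% and 1.08% of all probe sets did. Hhip 1455277_at passed the lower one at E14.5 (1.06%), and no hedgehog probe set passed it at E16.5 (0.582%).

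Lists of marker genes, with 1 probe set per gene, were read beside these values. Acinar markers had a median log2 ratio of -1.02 in KO_540C, -1.23 in KO_540G and -1.60 in KO_615B, and of 0.56 in KO_615A, the pancreas in which Hhip 1455277_at was nearest to wildtype and Gli2 1459211_at was lowest at E14.5. At E16.5 they were at -2.20 in KO_541J, -3.46 in KO_541L, -1.13 in KO_591C and -0.98 in KO_591D. This is the reverse of the order of Gli2 1459211_at and Gli3 1455154_at in those pancreata. The order is not particular to raised probe sets: Smo 1427049_s_at, within its wildtype pair, had it too, at 1.22, 1.28, 0.938 and 0.902. Gli3 1456067_at did not, with KO_541J at 1.77 and KO_541L at 1.73. At E14.5 Gli2 1459211_at was not in the reverse order either: KO_540C was highest, at 1.70, while KO_615B had the lowest acinar median. The acinar, Gli2 and Gli3 values also split by the number in the array names, KO_541J and KO_541L against KO_591C and KO_591D. The labels do not say what the number marks, so whether these 4 are independent is not known. All 5 acinar markers measured (Ptf1a, Cpa1, Cel, Cela1 and Ctrb1) had log2 fold changes below 0 at both days, but none had an unadjusted limma p under 0.05 at E14.5, and Cel, the bile salt-activated lipase, passed the limit at E16.5 (log2 fold change -2.97, adjusted p = 0.0422). The list does not stand for all acinar genes: of the pancreatic enzymes outside it, Cpb1, a carboxypeptidase looked at after these values were known, stood at 3.81, 5.06, 5.93 and 3.64 in the KO pancreata of E14.5 (log2 fold change 2.18, adjusted p = 0.406) and at 0.114, 0.0901, 0.259 and 0.376 in those of E16.5 (-2.43, adjusted p = 0.0264). Epithelial markers ran from -0.79 to 0.19 in the KO pancreata of E14.5 and from -1.24 to -0.34 in those of E16.5, where the wildtype pair stood at -0.45 and 0.34.

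Mesenchymal markers had log2 fold changes above 0 for 10 of 10 genes at E14.5 and for 8 of 10 at E16.5. The median of the list was 0.19, 0.45, 0.16 and 0.31 in the KO pancreata of E14.5 (same order as above) and 0.40, 0.46, -0.03 and 0.22 in those of E16.5, and the wildtype pancreata lay between -0.06 and 0.06. One of these genes, Col3a1, a fibrillar collagen, passed the limit at E16.5, at 2.15 ± 0.671 (adjusted p = 0.0488). The part that the makeup of the organ has in the Gli2, Gli3 and Hhip values was not tested. Of markers of adjoining organs, Vil1 of the intestine and Tff2 of the stomach fell at E16.5 (0.43 and 0.625 of wildtype, adjusted p = 0.00356 and 0.0160); 2 of 7 intestinal and 4 of 7 gastric markers were higher at that day, and the list medians over the KO pancreata ran from -0.15 to -0.04 and from -0.03 to 0.07. At E14.5, 5 of 7 intestinal and 7 of 7 gastric markers were higher, none past the limit, and the gastric median ran from 0.10 to 0.27 in the KO and from -0.05 to 0.05 in the wildtype pancreata. Both spleen markers were lower at E16.5 and neither passed the limit.

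**Figure D3:**
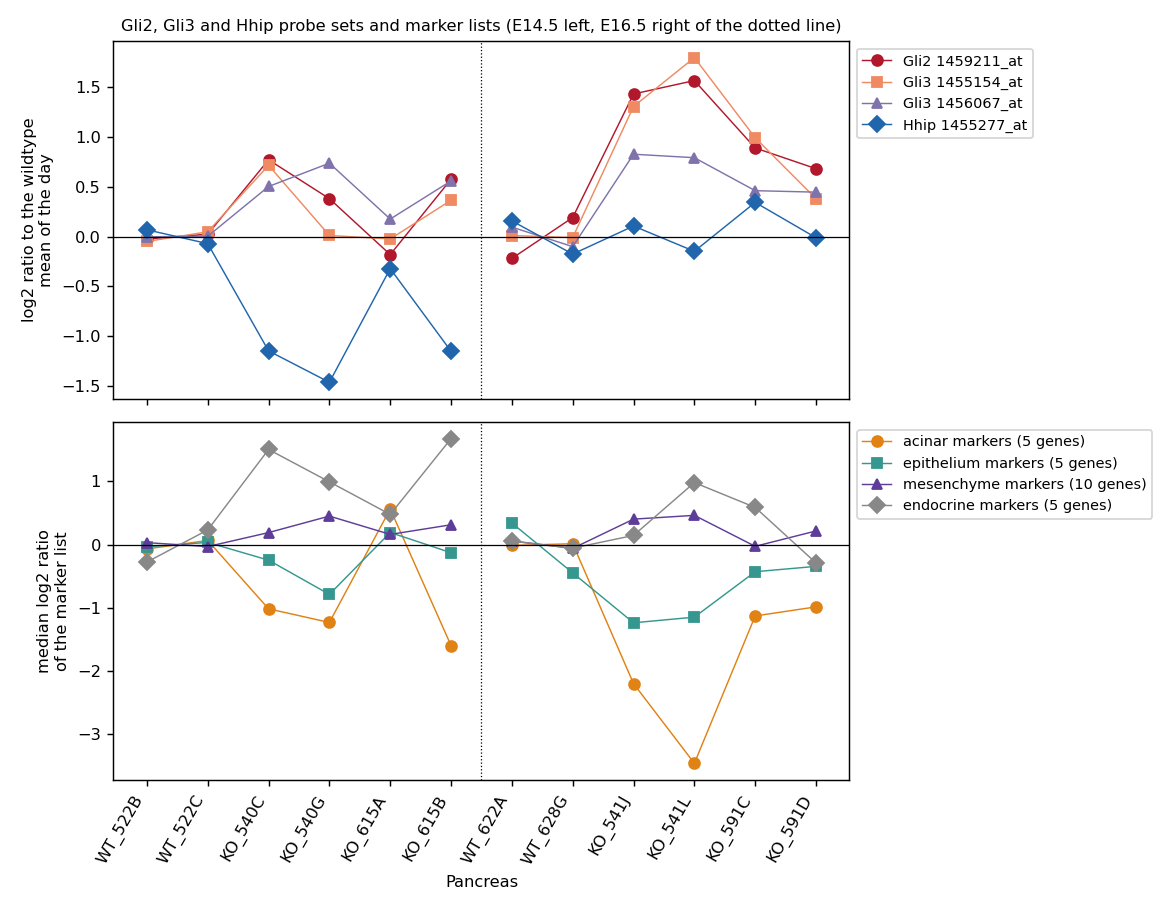
Log2 ratio of 4 hedgehog probe sets (top) and median log2 ratio of 4 marker lists (bottom) in each of the 12 pancreata (x axis), E14.5 to the left and E16.5 to the right of the dotted line; lines join pancreata only to guide the eye. KO_615A has Hhip and acinar values nearest to or above wildtype at E14.5. KO_541L has the highest values of Gli2 1459211_at and Gli3 1455154_at and the lowest acinar median, -3.46, at E16.5.

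The rest of the pathway was followed through 49 further genes, of which 45 were measured. At E14.5, 27 had a log2 fold change above 0 and 18 below it on the 1 probe set taken per gene by its name, with a median of 0.02. None passed the limit (0.0111% of all probe sets), and 3 had an unadjusted limma p under 0.05, 2 higher and 1 lower, where 6.86% of all probe sets had one. At E16.5, 30 were higher and 15 lower, with a median of 0.11, 1 passed the limit (2.62% of all probe sets) and 11 had an unadjusted p under 0.05 (16.6%), all of them higher. That 1 was Ift88, a carrier of cargo within the primary cilium, at 1.52 ± 0.179 (log2 fold change 0.60, adjusted p = 0.0485). Of the 4 probe sets of Kif3a, the motor subunit that moves such cargo, only 1436560_at passed, at 1.68 ± 0.295 (0.73, adjusted p = 0.0314). The one taken by its name stood at 0.80 (adjusted p = 0.098). Among the 5 cilium genes measured the lowest at E16.5 was Ift172, at -0.23, and at E14.5 the list ran from Kif3a, at -0.13, to Dync2h1, at 0.13.

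The order within each list below rests on that 1 probe set per gene, and other probe sets of a gene often differed. Of the genes that process and release the ligands, Disp2, of the dispatched family, had the highest log2 fold changes, 0.57 at E14.5 and 0.85 at E16.5 (adjusted p = 0.069), while its other 2 probe sets stood at 0.06 and -0.05, then -0.01 and 0.16. Scube3, a secreted protein that helps carry the ligand, stood at -0.12 and 0.62 (adjusted p = 0.059), and Hhat, which adds the palmitate, was lowest at E16.5, at -0.06 (0.26 on its other probe set). Of the coreceptors, Boc was highest at E14.5, at 0.73 (0.29 and -0.07 on its others), and Gas1 at E16.5, at 0.91 (adjusted p = 0.093), with KO ratios of Gas1 from 1.28 to 2.95 and log2 fold changes of 0.27 and 0.26 on its others. Gpc3, a glypican that competes with Ptch1 for ligand, had the lowest value of that list at E16.5, -0.25, and Lrp2 the lowest at E14.5, -0.12. Gpr161, a ciliary receptor that keeps the pathway off, was lowest of the transduction genes at E14.5, at -0.24, and highest at E16.5, at 0.64 (adjusted p = 0.077), and its other probe set stood at 0.10 and -0.03. Evc, of the cilium base, was highest at E14.5, at 0.31, and Tulp3, which brings Gpr161 into the cilium, lowest at E16.5, at -0.08 (0.51 and 0.07 on its others). Of the kinases and degradation factors, Gsk3b, which phosphorylates Gli proteins and β-catenin alike, was highest at both days, at 0.25 and 0.50, with its other 5 probe sets between -0.22 and 0.51, and Cul3 was lowest at E14.5, at -0.42, and Prkacb, a catalytic subunit of protein kinase A, at E16.5, at -0.14. None of these passed the limit.

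Genes known as hedgehog targets in other tissues had medians of 0.03 (E14.5) and 0.08 (E16.5), and 8 of 12 were higher at each day. The lowest at E14.5 was Mycn, a proliferation factor, at 0.509 ± 0.146 of wildtype (log2 fold change -0.99, adjusted p = 0.406; 0.12 and -0.003 on its other probe sets), which stood at 0.17 at E16.5, and the highest was the cyclin Ccnd1, at 0.24. The highest at E16.5 was Bmp4, a ligand made by gut mesenchyme, at 0.45 (adjusted p = 0.136), and the lowest was another cyclin, Ccnd2, at -0.35. Neither these genes nor the readouts Gli1, Ptch1 and Hhip passed the limit at either day.

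**Figure D4:**
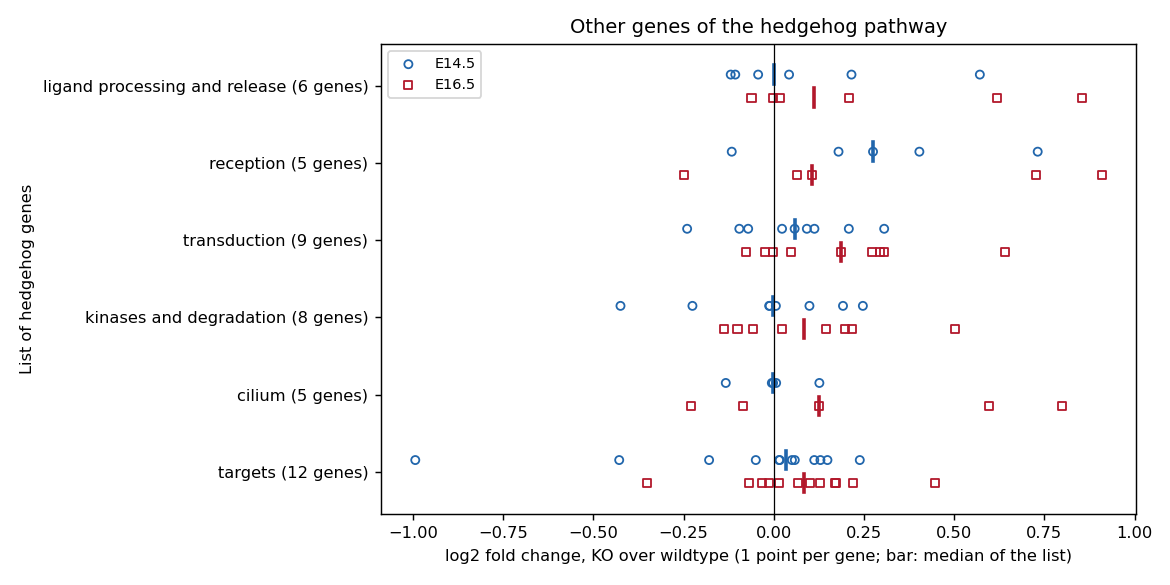
Log2 fold change of KO over wildtype (x axis) for the other hedgehog genes, 1 point per gene, by list (y axis), at E14.5 (circles) and E16.5 (squares), with bars at the list medians. Points at E16.5 reach further to the right, up to Gas1 at 0.91, and the lowest point is Mycn at E14.5, at -0.99.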

How the data were processed

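RNA of 12 embryonic mouse pancreata was measured on Affymetrix MOE430 2.0 arrays after 2 rounds of amplification, which can distort relative signals. Signals were summarized by the authors using RMA (GeneSpring), and the deposited values are linear ratios to the mean of the day's 2 wildtype arrays (each wildtype pair sums to 2 within 3e-07); scanner files were not used here. The text deposited with the series gives the earlier day as E14.6, the labels as E14.5. Of 45101 probe sets, 64 controls were left out. A linear model of 4 groups (8 residual degrees of freedom) was fitted to log2 ratios using limma 3.58.1 (R 4.3.3), and p-values were adjusted over 45037 probe sets, of which 34945 carry 1 gene symbol. No abundance filter or stage test was possible on ratios. The number of arrays limits the precision. A simulation used independent normal noise with each probe set's own spread and changed randomly chosen probe sets. Of those with a log2 change of 1, 79% were recovered at each day. This share cannot be read as that for the hedgehog probe sets: Hhip 1455277_at, at -1.02 at E14.5, had a limma adjusted p = 0.475. Members, lists and tests were chosen with earlier results of these data known. All 21 probe sets are reported; of other hedgehog genes, those that passed and the list extremes are named, and Hhip-like genes by correlation. Alternatives were other variances, scalings, weights, a random block, probe set filters, a t-test without the study's fold criterion and leaving out each array. Promoter sequences are from RefSeq (GRCm38.p6).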

Additional observations from a re-analysis of the deposited data

Results flagged for a closer look

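In each of the 42 groups of 4 KO values (21 probe sets, 2 days), the gap of the highest or lowest pancreas to its neighbour was set against the group's range, and 2 groups exceeded Dixon's critical value for 4 samples; chance alone gives 1 in 20, or 2.1. On Shh 1436869_at at E14.5, KO_540G stood at 1.11 and the other 3 KO pancreata at 0.969 to 0.981, a gap of 0.907 of the log2 range. On Dhh 1434959_at at E16.5, KO_541J stood at 1.87 and the others at 1.18 to 1.25, a gap of 0.864.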

How the results depend on the processing

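The number of hedgehog probe sets past the limit was 0 in each comparison. It was 3 at E16.5 with array weights and 1 with the number in the array names as a random block (correlation -0.0876), and leaving out each pancreas in turn gave 0 to 1 at E14.5, 0 to 3 at E16.5 and 0 for the difference. Of 1302 values for single probe sets and genes under the alternatives, 68 had another sign than reported, 48 of them on leaving out a pancreas; no reported value among these exceeded 0.34 in size, and all but 1 were smaller than their standard error. A further 11 values passed the limit (Gli2 1459211_at, Gli3 1455154_at and Gli3 1456067_at at E16.5, and Hhip 1455277_at at E14.5), and the 1 reversal of a value larger than its standard error was in Gli3: the difference between days for Gli3 as a gene was -0.34 on 1 probe set and 0.22 averaged over 3. Over all probe sets, 5 passed at E14.5, 1182 at E16.5 and 157 in the difference. These were 0, 86 and 14 with trended and robust variance, 9, 71 and 6 after quantile normalization, 30, 2380 and 580 with array weights, and 14 and 159 with each day on its own arrays. A t-test of each day's log2 ratios, adjusted over all 45037 probe sets, gave 0 and 0 (2269 and 5539 unadjusted). The study adjusted its t-test over the probe sets kept by its fold criterion, so these counts are not those of its procedure. Median centring gave 3 and the random block 11 at E14.5, and ratios without log2 gave 462 at E16.5 and 44 in the difference. Leaving out 1 pancreas gave 1 (WT_522B) to 19 (KO_615A), 404 (KO_541J) to 2862 (KO_591D) and 8 (WT_522B) to 408 (KO_591D). No paired analysis was possible because the labels give no numbers shared between KO and wildtype. A 2-array wildtype group and the scaling to it leave small differences undetectable, and dim probe sets cannot be identified.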

Other observations

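For each Hhip probe set, the genes whose log2 ratios over the 12 pancreata were most like it were ranked by Pearson correlation, as a description; the pancreata share their groups and their scaling. For 1455277_at these were Arfrp1, a small GTPase (0.984), Gins1, a DNA replication factor (0.981), and Prmt3, an arginine methyltransferase (0.975). Their KO means at E14.5 were 0.680, 0.634 and 0.605, and their log2 fold changes at E16.5 were 0.06, 0.11 and 0.10. For 1437933_at the leading gene was Lgr5, the R-spondin receptor (0.968), for 1438083_at Wiz (0.941), and for 1421426_at Opa1, of mitochondrial fusion (0.916). No gene led for more than 1 of the 4 probe sets.

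Among the other marker lists, 4 of 5 endocrine markers at E14.5 and 5 of 5 at E16.5 had log2 fold changes above 0, with medians of 1.11 and 0.25, and none passed the limit. At E16.5, 3 of 3 neuronal and glial and 2 of 3 leukocyte markers were higher, and the leukocyte marker Ptprc was lower, at 0.861 of wildtype. The neuronal Elavl4, at 1.88 (limma adjusted p = 0.0412), and Csf1r, a receptor of macrophages, at 2.39 (adjusted p = 0.0383), passed the limit. Over all probe sets of these genes, 1 of 7 neuronal and glial and 1 of 6 leukocyte ones passed. Endothelial markers were higher for 4 of 4 genes and mesothelial markers for 4 of 4 at E16.5, with none past the limit. Of 3 duct markers measured, 1 was higher at each day.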
